A study of Arabidopsis thaliana with 5 samples.

Results

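Class III peroxidases are a large family of secreted plant enzymes, and 56 of its loci, chosen by family and leaving out those tied to root hairs or to suberin, were followed in Arabidopsis roots. A locus was measured where the array annotation gave a probe set to that gene alone, which held for 44 of the 56, with 1 probe set each. The other 12 had no value of their own. Of these, 7 lay on probe sets annotated to several genes and 5 had no probe set named for them. The array named 13286 single genes in all.

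Roots of the Columbia ecotype were compared in a pair of preparations on ATH1 arrays, which report a signal for each probe set from labelled RNA. The first held 3 samples of protoplasts, cells freed from their walls and then passed through a cell sorter, with RNA of about 50000 cells each. The second held 2 samples of intact whole roots, each labelled from 1 µg of total RNA. Both had stood on standard medium at pH 5.7 for 5 days and then on medium at pH 4.6 for 24 h, so low pH was shared and no sample at the standard pH was compared. The labels name no sort gate, no marker line and no pooling of plants, and they do not state whether replicates came from separate cultures. The p-values therefore cover only the variation among these 5 samples, part or all of which may be technical.

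These enzymes work in the cell wall with hydrogen peroxide. They couple phenolic units into lignin and cross-link extensins and other wall polymers, which stiffens the wall, and they can also form reactive oxygen species that loosen it. In the root, family members are known from the xylem and the endodermal barrier, from the balance between division and elongation near the tip, and from responses to wounding and microbes. Many arose by tandem duplication and stand next to a close relative on the chromosome.

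Values are signals on a linear scale, with each array scaled to the same trimmed mean of 250.02, and fold changes are differences of mean log2 signal, sorted protoplasts minus whole roots. Brightness also depends on the probes, so signals are compared between samples of 1 gene and not between genes. The 3′/5′ signal ratio of control transcripts, which reads RNA integrity and labelling together, differed between the preparations. In all 6 control pairs it was higher in every sorted sample than in every whole-root sample. The pairs are repeat probe sets of actin, GAPDH and ubiquitin, so they are not 6 separate controls. One GAPDH control had 5.22 to 9.18 in sorted protoplasts and 0.788 to 0.969 in whole roots. The other had 1.33 to 1.51 in sorted protoplasts and 1.05 to 1.15 in whole roots. The ratio was largest for an actin control, with 107 to 169 in sorted protoplasts and 24.5 to 30.8 in whole roots. The other actin control had 19.8 to 29.3 in sorted protoplasts and 3.08 to 3.29 in whole roots. The 2 measured of 10 green shoot markers, RCA and LHCB4.1, summed to 92.6 to 112 in sorted protoplasts and to 802 to 971 in whole roots. Of 11 wounding and heat markers 3 were measured. STZ spanned 1011 to 1376 in sorted protoplasts and 277 to 429 in whole roots. WRKY53 spanned 221 to 337 in sorted protoplasts and 33.3 to 37.0 in whole roots. AT1G53540 spanned 197 to 238 in sorted protoplasts and 13.1 to 16.0 in whole roots, so the whole-root signals of WRKY53 and AT1G53540 were low. The part of these differences in the results below was not tested. Of 15 root tissue markers 3 were measured: the root hair gene EXPA7 spanned 23.3 to 66.1 in sorted protoplasts and 67.7 to 69.3 in whole roots, the cortex gene AT1G62500 spanned 17.8 to 47.3 in sorted protoplasts and 17.2 to 44.3 in whole roots, and CR4 of the stem cell niche spanned 71.8 to 88.9 in sorted protoplasts and 15.8 to 20.8 in whole roots. With bulk samples, fewer cells of a type and less RNA per cell cannot be told apart.

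The peroxidases moved in both directions, and the size of the movement differed widely between members. Of the 44 measured genes, 27 passed the filter on low signal, which left out the 40% of probe sets with the lowest mean log2 signal (below 43.3). Of those 27, 9 were higher and 8 lower in sorted protoplasts and 10 did not pass (limma, Benjamini-Hochberg adjusted p under 0.05). That is 63.0% called, against 60.6% of all 13647 probe sets tested, with 33.3% higher against 34.1% of all and 29.6% lower against 26.5% of all. The share of the family called at any size thus lay near that of the array as a whole. With an absolute log2 fold change of at least 1, 6 of the 27 were higher and 8 lower. Together this is a larger share than the 35.4% of all probe sets called in either direction at that size. The difference in share was not tested, and some of these genes passed the filter through 1 preparation alone. No share by direction at that size was worked out for all probe sets, so the split cannot be set against the array. The groups did not overlap at 20 of the 27 (74.1%), against 75.8% of all.

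The filter also left out genes that were bright in whole roots and close to nothing in sorted protoplasts, since their mean is low. Fitted without the filter, all 44 genes had a value, and 8 were higher and 13 lower, against 20.9% and 19.7% of all 22746 probe sets. The members' shares were 18.2% higher and 29.5% lower, and 47.7% called in either direction against 40.6% of all. At a log2 fold change of at least 1 in size, 6 of the 44 were higher and 13 lower. Together this is a larger share than the 27.6% of all probe sets called in either direction, a difference that was not tested. Here too the split by direction had no share of all probe sets beside it. In that fit 5 falls were added and 1 rise, that of PRX72, was lost. The median log2 fold change of the 44 genes was -0.25, with a lower quartile of -1.46 and an upper quartile of 0.73. Over all probe sets the median was -0.02 and the quartiles were -0.90 and 0.71. The groups did not overlap at 27 of the 44 genes (61.4%), against 61.8% of all probe sets.

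**Figure D1:**
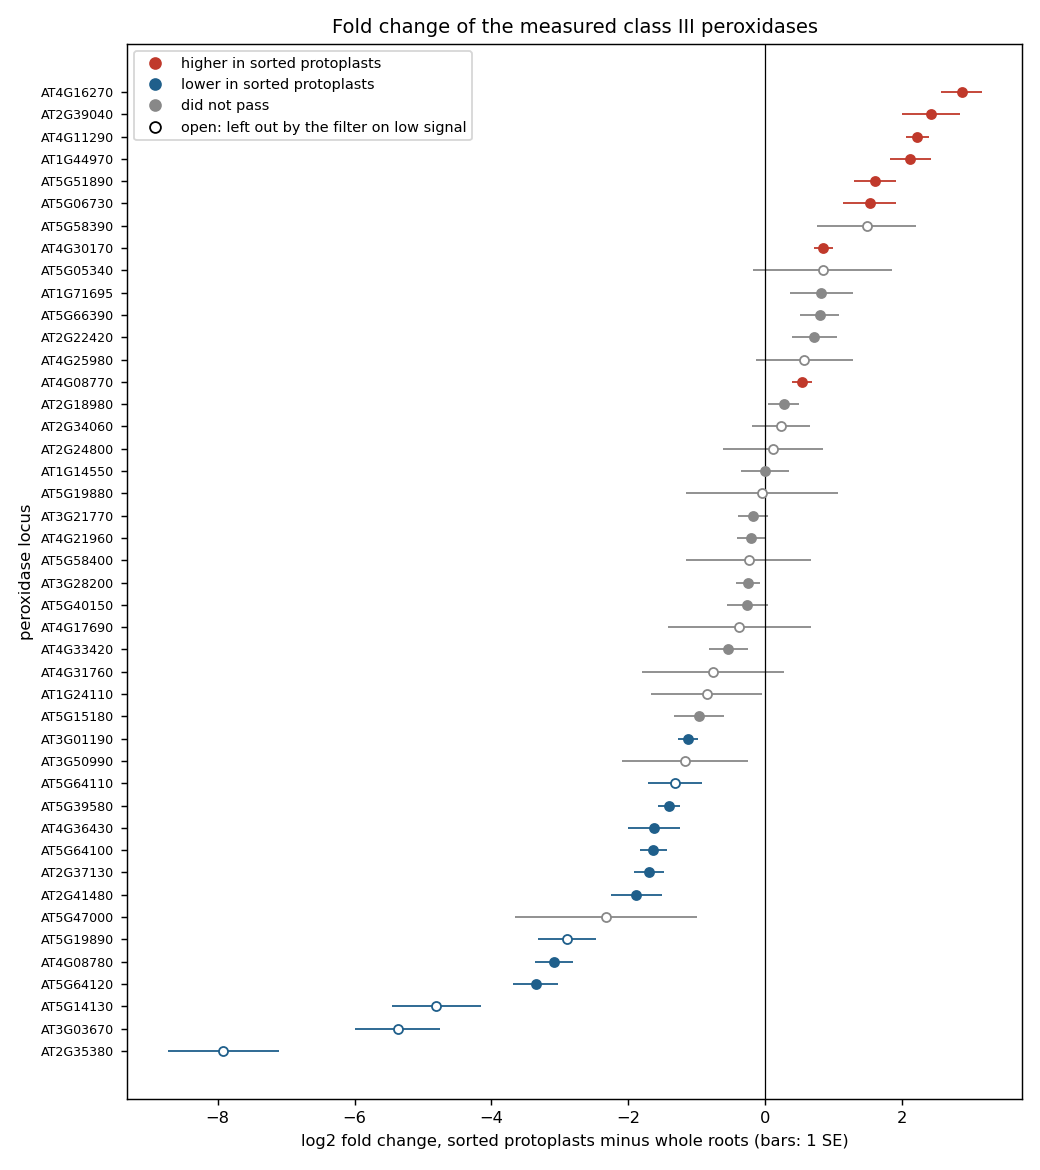
Log2 fold change (x axis, sorted protoplasts minus whole roots) of each of the 44 measured peroxidase loci (y axis), from the fit without a filter on low signal. Points are fitted values with bars of 1 SE, coloured by call, and open points mark the 17 genes that the filter left out. The values run from -7.92 for AT2G35380 to 2.86 for AT4G16270, with 13 genes lower and 8 higher.

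AT2G35380 fell furthest, on the fitted scale and against the bound. Its signal was 1.81, 2.98 and 15.5 in sorted protoplasts, against 1148 and 969 in whole roots. The gene was thus bright in both whole-root samples and below the filter bound of 43.3 in all 3 sorted samples. The fitted log2 fold change was -7.92 (SE 0.81, limma adjusted p = 0.000196 with no filter). A signal that low is imprecise, so the mean of the whole-root samples was also set against the bound of 43.3. By that floor the gene was at least 24.3-fold lower.

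AT5G14130 had 17.2, 3.74 and 15.6 in sorted protoplasts and 270.3 and 290.2 in whole roots, a log2 fold change of -4.80 (SE 0.65) that comes to 6.46-fold lower against the bound. AT3G03670 had 1.65, 2.25 and 1.70 in sorted protoplasts and 66.1 and 87.9 in whole roots (-5.37, SE 0.62). Its whole-root signal was only 1.76-fold above the bound, so its fitted value says little of the true size. These falls passed in the fit with no filter (limma adjusted p = 0.000720 and 0.000348), and the groups did not overlap at either gene.

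PRX71 (AT5G64120), known for a part in lignin formation and in limiting cell expansion, showed the largest fall among the genes past the filter. It had signals of 562, 234 and 284 in sorted protoplasts, against 3613 and 3246 in whole roots. Every sorted sample was far below both whole-root samples, at a log2 fold change of -3.36 (SE 0.33, limma adjusted p = 0.000124), or 10.2-fold. PRX25 (AT2G41480), which has also been linked to lignin, had 38.4, 19.6 and 32.6 in sorted protoplasts and 116.7 and 98.6 in whole roots (-1.88, SE 0.34, adjusted p = 0.00195 by limma). Its sorted signals were below the bound, against which it was 2.48-fold lower.

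AT4G08780 had 94.5, 53.4 and 53.9 in sorted protoplasts and 586 and 516 in whole roots, a log2 fold change of -3.09 (SE 0.28, limma adjusted p = 8.02e-05). AT2G37130 had 708, 421 and 454 in sorted protoplasts and 1751 and 1588 in whole roots (-1.70, SE 0.23). Both genes were lower in every sorted sample. AT4G36430 had 512, 177 and 303 in sorted protoplasts and 1061 and 817 in whole roots (-1.62, SE 0.39), and this call was lost without whole-root replicate 1 (limma adjusted p = 0.0775).

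AT5G39580 and AT5G64100 are both known to promote root hair growth in the cold. AT5G39580 had 286, 257 and 324 in sorted protoplasts and 828 and 699 in whole roots (-1.40, SE 0.17, limma adjusted p = 0.000293). AT5G64100 had 2410, 1658 and 1767 in sorted protoplasts, against 5977 and 5935 in whole roots (-1.63, SE 0.18, limma adjusted p = 0.000183). AT3G01190 showed the smallest fall of the group that passed the filter, with 2148, 1798 and 1766 in sorted protoplasts and 4061 and 4248 in whole roots (-1.13, SE 0.14). At each of these 3 bright genes the 2 whole-root samples lay together above all sorted samples.

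**Figure D2:**
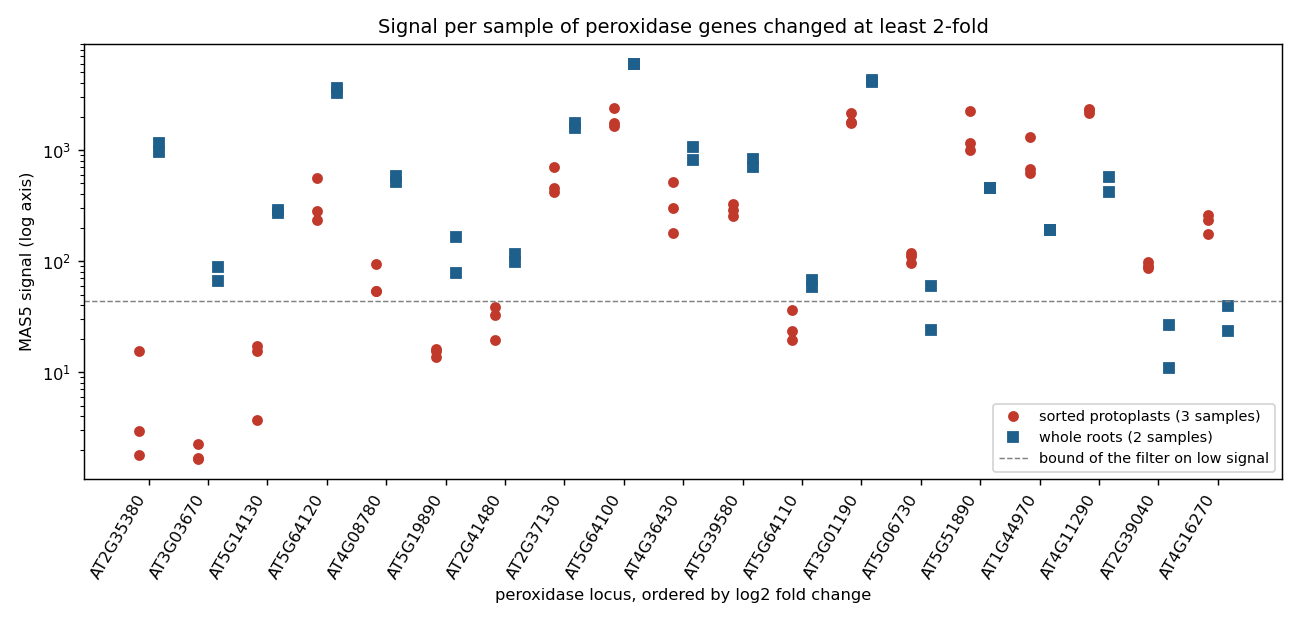
MAS5 signal on a log axis (y axis) in each of the 3 sorted protoplast samples (red circles) and 2 whole-root samples (blue squares) for the 19 peroxidase loci (x axis) past the threshold without a filter and with an absolute log2 fold change of at least 1. The dashed line is the filter bound of 43.3. The 19 genes were chosen for their difference between the groups, so the lack of overlap at all of them follows largely from that choice. Of all probe sets, 61.8% were without overlap. AT2G35380 had 15.5 or less in sorted protoplasts and 969 or more in whole roots.

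Among the rises, AT4G11290 had 2155, 2305 and 2360 in sorted protoplasts, against 420 and 567 in whole roots, a log2 fold change of 2.22 (SE 0.16, limma adjusted p = 3.39e-05), or 4.66-fold. AT4G16270 rose with it, with 259, 176 and 237 in sorted protoplasts and 23.5 and 39.3 in whole roots (2.86, SE 0.29, limma adjusted p = 0.000128). Its whole-root signal was below the bound, against which it was 5.10-fold higher. Both genes are known as targets that the transcription factor UPB1 represses in the root growth zone, where UPB1 sets the balance of reactive oxygen species between dividing and elongating cells. The UPB1 transcript itself had 315, 285 and 237 in sorted protoplasts and 199 and 157 in whole roots, so it was higher as well (0.65, SE 0.20, limma adjusted p = 0.0214). The UPB1 call was lost without sorted replicate 2 (adjusted p = 0.0602) and without whole-root replicate 2 (adjusted p = 0.162).

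AT5G17820, a further known target of UPB1 that is counted with the root hair peroxidases, was on the other side. It had 1225, 695 and 828 in sorted protoplasts and 1459 and 1420 in whole roots (-0.69, SE 0.23, limma adjusted p = 0.0313). That call was lost with median centring (adjusted p = 0.0935) and without each sample in turn other than sorted replicate 1, with limma adjusted p between 0.0812 and 0.144.

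AT1G44970, which acts with AT4G16270 in the tapetum of the anther, had 1316, 623 and 679 in sorted protoplasts and 190.2 and 189.6 in whole roots (2.12, SE 0.31, limma adjusted p = 0.000685). The remaining member of the list of growth-related peroxidases, PER36 (AT3G50990), known from the seed coat, was below the bound in every sample, at 11.3 or less. AT2G39040 had 86.85, 98.17 and 90.11 in sorted protoplasts and 10.98 and 26.79 in whole roots (2.42, SE 0.39), or 2.11-fold higher against the bound. AT5G06730 had 117.2, 97.1 and 111.8 in sorted protoplasts and 59.3 and 24.0 in whole roots (1.52, SE 0.37), or 2.50-fold higher against the bound. Leaving out 1 whole-root sample moved both genes by over 1.5 times in fold: without whole-root replicate 1 and without whole-root replicate 2 AT5G06730 was 2.18 and 0.87, and AT2G39040 was 1.77 and 3.06. AT2G39040, AT4G16270 and AT5G06730 passed the filter through their sorted signals, and PRX25 through its whole-root signals, so these 4 genes had to differ to be tested at all.

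Of the 9 loci listed for lignin and the Casparian strip 7 were measured and 6 passed the filter, and these split into 2 higher, 2 lower and 2 that did not pass. AT5G51890, known from the lignification of xylem vessels, had 2235, 1007 and 1165 in sorted protoplasts and 452 and 454 in whole roots (1.61, SE 0.31, limma adjusted p = 0.00285). PRX72 (AT5G66390), needed for normal lignin in stem and endodermis, had 2771, 1341 and 1487 in sorted protoplasts and 1016 and 1026 in whole roots (0.79, SE 0.29, limma adjusted p = 0.0440). The groups did not overlap at PRX72, but the call was lost in 6 of 14 alternatives, among them quantile normalization (adjusted p = 0.0566) and no filter (adjusted p = 0.0597). PRX71 and PRX25 were the members that fell. AT4G33420, known from the xylem, had 2204, 1020 and 1365 in sorted protoplasts and 2022 and 2214 in whole roots (-0.54, SE 0.29, limma adjusted p = 0.137). AT2G22420, expressed in lignifying tissue, had 292, 140.4 and 140.7 in sorted protoplasts and 109.5 and 109.1 in whole roots (0.71, SE 0.33, adjusted p = 0.0922 by limma). PRX52 (AT5G05340), of the lignin of the stem, was below the bound in all samples.

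Of the 6 loci listed as responding to elicitors or wounding 3 were measured and passed the filter, and 2 of them, AT4G36430 and AT5G39580, fell. The third, AT1G14550, had 144.6, 67.3 and 71.6 in sorted protoplasts and 84.6 and 93.5 in whole roots (-0.005, SE 0.34, limma adjusted p = 0.991). Its groups overlapped and its sign depended on the setting. The 3 measured wounding and heat markers were all higher in sorted protoplasts.

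The brightest peroxidase probe set, that of PRXR1 (AT4G21960), had 8008, 5963 and 6039 in sorted protoplasts and 6978 and 8372 in whole roots (-0.21, SE 0.17, limma adjusted p = 0.313). AT2G18980, also among the 6 brightest, had 1410, 2072 and 1903 in sorted protoplasts and 1775 and 1227 in whole roots (0.26, SE 0.22, adjusted p = 0.326 by limma). At both genes, and at AT4G33420, the groups overlapped. AT4G30170 was the one riser among the 6, with 2539, 2171 and 2481 in sorted protoplasts and 1326 and 1342 in whole roots (0.84, SE 0.13, limma adjusted p = 0.00106). The other 2 of the 6, AT5G64100 and AT3G01190, were among the falls above.

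The genes that passed the filter but not the test had log2 fold changes between -0.97 and 0.82. AT5G15180, at -0.97 (SE 0.37, limma adjusted p = 0.0503), was closest to the threshold, with 168, 63.7 and 119.1 in sorted protoplasts and 211.0 and 215.1 in whole roots. AT1G71695 was at the other end, with 867, 337 and 249 in sorted protoplasts and 267 and 211 in whole roots (0.82, SE 0.46, limma adjusted p = 0.160). AT3G21770, AT3G28200 and AT5G40150 had values of -0.18, -0.25 and -0.26. Of the 17 genes that the filter left out, 12 did not pass in the fit without it. Their signals were between 0.476 and 62.0 and their log2 fold changes between -2.33 and 1.48, with SEs up to 1.33 (AT5G47000). No direction can be read from these 12 genes, whose mean signals were below the bound in both preparations.

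Next, loci that stand side by side on a chromosome were compared. The list held 9 groups of adjacent peroxidase loci, and in 4 of them every locus was measured. Differences between copies were not tested, and cross-hybridisation between similar copies was not assessed.

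In the pair AT4G08770 and AT4G08780 the neighbours went in opposite directions. AT4G08770 is Prx37, known from vascular bundles, where excess protein stunts growth. It had 968, 803 and 986 in sorted protoplasts and 603 and 665 in whole roots (0.53, SE 0.15, limma adjusted p = 0.0178). AT4G08780, as given above, was 8.49-fold lower. The groups did not overlap at either gene. The rise of Prx37 was lost without sorted replicate 3 (adjusted p = 0.0729), whole-root replicate 1 (0.121) or whole-root replicate 2 (0.0606), and with the replicate number as a block (0.0973), whereas the fall of AT4G08780 held in each of these fits by limma.

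In the trio AT5G64100, AT5G64110 and AT5G64120 all neighbours were lower in sorted protoplasts. The middle gene, AT5G64110, had 36.2, 23.4 and 19.4 in sorted protoplasts and 67.9 and 59.0 in whole roots (-1.32, SE 0.39, limma adjusted p = 0.0291 with no filter). It lay close to the bound, against which it was 1.46-fold lower, while the outer genes were bright in both preparations. The fall of AT5G64120, PRX71, was 10.2-fold and that of AT5G64100 3.10-fold.

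Of AT5G19880 and AT5G19890, the first had signals of 2.81 or less in every sample. AT5G19890 had 13.9, 16.3 and 15.4 in sorted protoplasts and 77.6 and 164.0 in whole roots (-2.90, SE 0.43, limma adjusted p = 0.00106 with no filter), or 2.60-fold lower against the bound. AT5G58390 and AT5G58400 were below the bound in every sample, with signals up to 10.5 and 21.6.

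**Figure D3:**
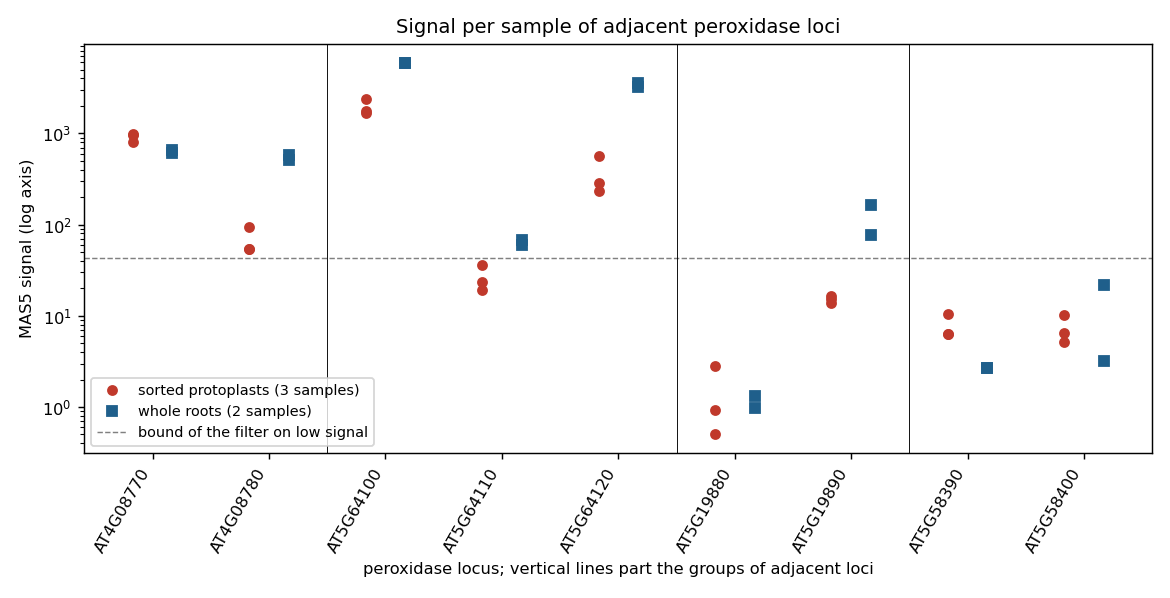
MAS5 signal on a log axis (y axis) in each sorted protoplast sample (red circles) and whole-root sample (blue squares) for the 4 groups of adjacent peroxidase loci (x axis) in which every locus was measured. The dashed line is the filter bound of 43.3. AT4G08770 is higher and its neighbour AT4G08780 lower in sorted protoplasts, while the 3 neighbours AT5G64100, AT5G64110 and AT5G64120 are all lower.

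Sorted replicate 1 stood apart from the other sorted samples, over the whole array as well as in this family. Over all tested probe sets its log2 signals correlated at 0.954 and 0.956 with those of the other sorted samples, which correlated at 0.987 with each other. Over the 27 peroxidases these values were 0.962, 0.968 and 0.990. Among the 27 genes past the filter, sorted replicate 1 had the highest signal of the 3 sorted samples at 20 (74.1%), against 40.8% of all tested probe sets. Its median deviation from the sorted mean was 0.40 on the log2 scale, with -0.28 in sorted replicate 2 and -0.10 in sorted replicate 3. The median SD of log2 signal among the sorted samples was 0.38 for the 27 genes and 0.21 for all tested probe sets. Among the whole-root samples it was 0.10 and 0.13. By these medians the peroxidases were more spread than the array as a whole in the 3 sorted samples. The whole-root medians were close and rest on 2 samples, and no difference in spread was tested.

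Genes with an excess in sorted replicate 1 were found among those that rose (AT5G51890), fell (PRX71) and did not pass (AT1G71695). Without that sample 28 peroxidase genes passed the filter and 23 the test, 9 higher and 14 lower, against 17 with it. That is 82.1% called, 32.1% higher and 50.0% lower, against 69.5%, 38.2% and 31.3% of all 13647 probe sets tested in that fit, so calls became more frequent over the array too. AT5G15180 (-1.29), AT4G33420 (-0.84), AT3G21770 (-0.40) and PRXR1 (-0.35, AT4G21960) were then lower and AT2G18980 (0.43) higher. AT2G35380 and AT5G14130 then passed the filter and were lower as well. Of the 17 calls 16 held, and AT2G39040 no longer passed the filter.

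**Figure D4:**
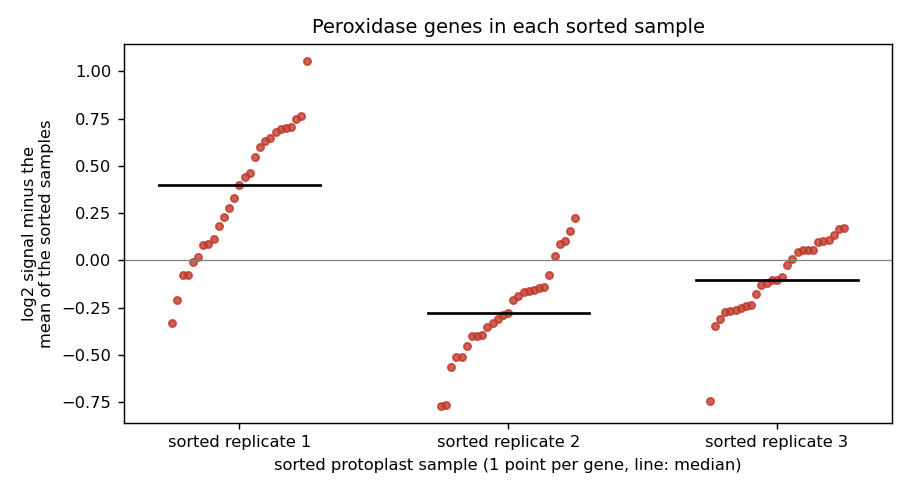
Log2 signal minus the mean of the 3 sorted samples (y axis) in each sorted replicate (x axis) for the 27 peroxidase genes past the filter. Points are genes in ascending order and the black line is the median, 0.40 in sorted replicate 1, -0.28 in sorted replicate 2 and -0.10 in sorted replicate 3.

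Gene length was set beside the fold change, and no difference between the family and the array was tested. Spearman's rho between length and log2 fold change was -0.16 over the 27 peroxidases past the filter and 0.32 over 7334 named probe sets tested. With no filter it was 0.098 over the 44 peroxidases and 0.20 over 13436 named probe sets. The measured peroxidase genes were between 1294 and 4186 bp long, with a median of 1756 bp, and a median of 2117 bp was found for all named probe sets. These lengths include introns, and genes are not independent replicates.

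Genes linked to these enzymes were followed on 10 lists with 98 loci, of which 22 were measured and 15 passed the filter. The lists held genes that supply or share the chemistry, the repressor UPB1 and the class III peroxidases outside the 56 loci. Of the 15 genes, 3 were higher and 7 lower, which is 66.7% called, near the 60.6% of all probe sets tested. The calls were 2 NADPH oxidases, 1 gene of hydrogen peroxide removal and UPB1. The others were 2 each of the root hair, suberin-linked and further class III peroxidases, so the share is not one of supply genes alone. Some of the 15 passed the filter through 1 preparation alone, as given below. The NADPH oxidases, which make the superoxide that becomes hydrogen peroxide, had 10 listed loci, of which 3 were measured. The 2 that passed the filter did so through their whole-root signals, so they had to be lower to be tested, and the third, AT4G11230, was below the bound in every sample (-0.19, limma adjusted p = 0.734 with no filter). AT1G19230 had 50.4, 28.5 and 37.1 in sorted protoplasts and 196.8 and 199.6 in whole roots (-2.40, SE 0.28, limma adjusted p = 0.000262), or 4.57-fold lower against the bound. AT4G25090 had 61.6, 11.5 and 31.0 in sorted protoplasts and 255.3 and 171.4 in whole roots (-2.90, SE 0.62), or 4.83-fold lower against the bound. Without sorted replicate 2 the value was -2.26, and the fall no longer passed when whole-root replicate 1 was left out (adjusted p = 0.0537 by limma).

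Of 19 genes that remove hydrogen peroxide inside the cell 2 were measured. SAPX, an organellar ascorbate peroxidase, fell (-0.58, SE 0.15, limma adjusted p = 0.0113), but did not pass with median centring (adjusted p = 0.106) or without whole-root replicate 2 (adjusted p = 0.110). TAPX did not pass the filter. Neither of the 2 measured of 18 monolignol genes passed, HCT at 0.43 (limma adjusted p = 0.136) and CCR2 at -0.09 (adjusted p = 0.795). Of 9 Casparian strip genes 2 were measured and neither passed, the receptor kinase gene GSO1 (0.67, limma adjusted p = 0.133) and the kinase gene AT1G61590 (0.45, adjusted p = 0.154). HCT, GSO1 and AT1G61590 passed with median centring (limma adjusted p = 0.0259, 0.0389 and 0.0339). The 1 measured of 17 laccase genes, LAC16, did not pass the filter. With no filter it was lower (-4.27, SE 1.02, limma adjusted p = 0.0109), at 9.13, 1.08 and 1.20 in sorted protoplasts and 36.7 and 52.4 in whole roots. Its whole-root signals were close to the bound, so the fitted value says little of the true size. None of 7 superoxide dismutase genes was measured.

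The family members set aside for root hairs and suberin give the nearest comparison. Both suberin-linked peroxidases fell: AT1G68850 had 15.0, 9.79 and 7.12 in sorted protoplasts and 765 and 702 in whole roots, or 16.9-fold lower against the bound. AT1G49570 had 70.7, 47.7 and 71.2 in sorted protoplasts and 907 and 1601 in whole roots (-4.28, SE 0.29, limma adjusted p = 2.47e-05). Of the 5 measured of 8 root hair peroxidases 3 passed the filter, and 2 fell, AT4G26010 (-1.52) and AT5G17820 (-0.69), while AT1G30870 (-0.22, limma adjusted p = 0.677) did not pass. Of 7 further class III peroxidases 4 were measured, and AT2G43480 (2.25, or 4.00-fold against the bound) and AT5G24070 (1.47) rose while 2 did not pass the filter. AT2G43480 passed the filter through its sorted signals and AT1G68850 through its whole-root signals, so both had to differ to be tested at all. No test was made of a difference between these groups and the 44 genes. Protoplasting, sorting and the amount of RNA labelled went with the preparation, so they cannot be told apart.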

How the data were processed

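Transcript levels were measured on ATH1 arrays in 3 sorted protoplast and 2 whole-root samples, grouped by their labels. The deposited values are linear signal intensity, which the authors computed with MAS5 according to their labels, per the submitters' processing notes; its version is not stated there. The mean signal trimmed by 2% at each end was 250.02 on every array. No detection calls were used here, and the number of arrays limits the precision.

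Log2 of the deposited signals was tested without further scaling in limma 3.58.1 (R 4.3.3) with a mean-variance trend, no term but the group, and Benjamini-Hochberg adjustment over all probe sets tested. The 64 control probe sets were left out, as were the 9099 others with a mean log2 signal in the lowest 40%. All tests were repeated without that filter. The code was tested on simulated data.

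Of 22810 probe sets the platform annotation named 1 gene for 13513, several for 503 and none for 8730, and 13436 matched the RefSeq gene table (TAIR10.1) by gene ID. That table gave names, lengths and adjacency. No sequence was used here.

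The members, lists, tests and alternatives were chosen with earlier results of these data known, so agreement with those results is not independent support. Values per sample were given for members past the threshold with an absolute log2 fold change of at least 1 and for the 6 brightest. Members called only without the filter or near the threshold, and members of a role list, were given likewise, which was decided after their values were seen. Of each linked list the 2 members with the largest change were named. Fold against the bound divides the geometric mean of the brighter preparation by 43.3. It is a floor for the fold between the mean signals and not an estimate of it, and the bound is not a detection limit. The 14 alternatives left out each sample in turn (the filter was recomputed), dropped the filter or set it at 60%, dropped the variance trend, added a replicate block or a pseudocount of 32, centred arrays on the median, normalized by quantiles, removed the trend with gene length, or tested for changes beyond 1 on the log2 scale.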

Additional observations from a re-analysis of the deposited data

How the results depend on the processing

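Of the 17 peroxidase calls, 12 held without each of the 5 samples in turn and 5 held in all 14 alternatives. Of the other 5 in the leave-one-out fits, AT4G08770, AT4G36430 and AT5G66390 no longer passed without at least 1 sample, and AT2G39040 and AT2G41480 no longer passed the filter. With the filter at 60% 13 calls held and the other 4 were not tested. Peroxidase calls numbered 21 with no filter (8 higher, 13 lower), or 47.7% against 40.6% of all probe sets. Against a log2 fold change of 1 they numbered 7 (4 higher, 3 lower), where 10 were lost. Without sorted replicate 1, 2 and 3 in turn, peroxidase calls were 23 (9 higher, 14 lower), 18 (8 higher, 10 lower) and 18 (8 higher, 10 lower). The calls over the whole array were then 9487, 7304 and 7059, against 8272 with every sample. Without 1 whole-root sample, which leaves 1 in that group, calls were fewer both among the peroxidases and over the array. Over all probe sets the calls were 1884 against a log2 fold change of 1 (735 higher, 1149 lower) and 4184 of 7334 with the length trend removed (2680 higher, 1504 lower), where fewer probe sets were tested, and 2223 were lower with the filter at 60%. Median centring put the median log2 fold change of the tested probe sets at 0.39. That median was 0.15 in the fit with the 40% filter and no centring. Centring gave 5925 higher and 2876 lower, while peroxidase calls were 10 higher and 8 lower. The linked genes include the class III peroxidases outside the 56 loci, and calls among them were 10 of 15 (66.7%, against 60.6% of all probe sets tested). These numbered 6 with the filter at 60% and 4 against a log2 fold change of 1, where 5826 and 1884 of all probe sets were called. Without sorted replicate 1, 2 and 3 in turn the linked calls were 11, 8 and 9.

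Signs turned for genes that did not pass. After removal of the length trend AT5G40150 was 0.33, AT3G28200 0.34, AT3G21770 0.40, AT1G14550 0.58 and AT1G30870 0.32. With median centring PRXR1 (AT4G21960) was 0.028, AT3G21770 0.061, AT1G14550 0.23, CCR2 (AT1G80820) 0.14 and AT1G30870 0.017. Quantile normalization gave 0.070 for AT5G40150 and 0.23 for AT1G14550, and the pseudocount gave 0.012 for AT1G14550. Without 1 sample AT5G40150 spanned -0.55 to 0.024, AT1G14550 -0.36 to 0.19, AT2G18980 -0.0030 to 0.53, AT1G80820 -0.40 to 0.092 and AT1G30870 -0.62 to 0.22. The causes were not tested.

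Deviations of same-numbered samples from their group means correlated at 0.006 for replicate 1 and 0.001 for replicate 2. With 2 whole-root samples the deviations of one mirror those of the other, so these values are not separate checks. Whether same-numbered samples were handled together cannot be told from them. With the replicate block 19 peroxidase genes passed (10 higher, 9 lower), and 6937 of all 13647 probe sets (3801 higher, 3136 lower). In that fit AT1G14550 was 0.15 and AT1G80820 0.021. Sorted replicate 3 has no whole-root sample of its number, so the block gave the same fold changes as the fit without that sample.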

Other observations

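Probe sets annotated to several genes were outside the comparison, and 4 of them hold listed peroxidase loci. One of these, annotated to 2 listed loci, had 37.4, 27.2 and 27.5 in sorted protoplasts and 1943 and 1895 in whole roots, a log2 fold change of -5.98 (SE 0.20, limma adjusted p = 3.49e-06). A second, also annotated to 2 listed loci, had 371, 493 and 491 in sorted protoplasts and 1724 and 1843 in whole roots (-1.99, SE 0.16, limma adjusted p = 6.33e-05). In both, the groups did not overlap, and which of the 2 genes gave the signal cannot be told from the array. Another, also annotated to 2 listed loci, was at 230.8, 84.2 and 148.4 in sorted protoplasts and 199.4 and 167.7 in whole roots (-0.36, limma adjusted p = 0.434). The last had signals of 0.789 or less in all samples.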
